A study of Mus musculus with 6 samples.

Results

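The genes described here are the mouse zinc finger genes whose symbol is Zfp followed directly by a number, as listed in an RNA-seq table of alveolar macrophages, the phagocytes that live in the air sacs of the lung. The symbol alone chose them, not their values, and 312 of the 11789 listed genes carry such a symbol. The table compares 3 libraries from A20 conditional knockout mice (A20-1, A20-3 and A20-4) with 3 libraries from wild-type mice (BLM1, BLM2 and BLM3), all from lungs of the C57BL/6 strain, exposed to what the labels call BLM without spelling it out. A20, encoded by Tnfaip3, is a ubiquitin-editing enzyme that restrains NF-kB signalling. The age of the animals, the driver of Cre, the exons removed, the dose and day of the exposure and any pooling of animals were not given in the sources used here. With pooling unknown, p-values cover only the spread of these samples, which may be partly technical.

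Zfp is the mouse prefix for zinc finger protein and does not name a single family. Most such proteins carry tandem C2H2 fingers, short loops folded around a zinc ion by a pair of cysteines and a pair of histidines, which read DNA. Many of these also carry a KRAB domain, which recruits the corepressor Trim28 and through it histone and DNA methylation, and KRAB zinc finger proteins are best known for silencing transposable elements and for guarding imprinted genes. A small separate group, Zfp36 (tristetraprolin), Zfp36l1 and Zfp36l2, has CCCH fingers that bind AU-rich elements in the 3′ untranslated region (3′ UTR) of messenger RNAs and hand them to the CCR4-NOT deadenylase. In macrophages this group is known for shortening the life of cytokine messages, and Zfp36 is itself induced by inflammatory signals.

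The 3 CCCH genes are shown by sequence first, because their own messages hold the element that their proteins are known to bind and because much of what follows turns on their levels. Each window below has 28 bases of the 3′ UTR, from the GENCODE M21 transcript with the longest 3′ UTR, with each match to the heptamer TATTTAT in capitals.
Zfp36, 3′ UTR bases 575 to 602: cttTATTTATgacgacttTATTTATtgt
Zfp36l1, 3′ UTR bases 1142 to 1169: ttatcaaaacgTATTTATtgccaaacta
Zfp36l2, 3′ UTR bases 814 to 841: actatttaactTATTTATtatcttgtga
Each of the 3 genes had 3 such heptamers in its whole 3′ UTR. The heptamer was present in the 3′ UTR of 36.6% of the 306 members with an annotated one, and of 29.4% of the 11593 listed genes, while 3.8% of the listed genes had 3 or more. A match is a string of letters and not a shown binding site.

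The 250 bases before the RefSeq start (GRCm38.p6) are shown for Zfp36 and Zfp36l1, which both had their highest value in library BLM3. The RefSeq start of Zfp36 lies inside the gene as the deposited table gives it. Both lie on the minus strand and are written 5′ to 3′. Capitals mark the CArG box of Zfp36, the element bound by serum response factor, and the AP-1 site of Zfp36l1.
Zfp36, chr7:28379229-28379478: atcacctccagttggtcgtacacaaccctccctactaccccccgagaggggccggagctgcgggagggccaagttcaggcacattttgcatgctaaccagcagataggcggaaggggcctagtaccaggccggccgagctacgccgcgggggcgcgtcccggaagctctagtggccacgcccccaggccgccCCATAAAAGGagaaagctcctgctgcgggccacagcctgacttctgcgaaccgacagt
Zfp36l1, chr12:80113014-80113263: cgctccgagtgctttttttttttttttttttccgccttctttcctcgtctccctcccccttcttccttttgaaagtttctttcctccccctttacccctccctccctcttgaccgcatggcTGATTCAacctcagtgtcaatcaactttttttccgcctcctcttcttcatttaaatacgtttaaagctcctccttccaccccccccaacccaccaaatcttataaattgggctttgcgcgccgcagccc
Both strands were searched for the CRE core TGACG, the AP-1 site TGANTCA, the GC box GGGCGG, the CArG box and the NF-kB site. In Zfp36 the CArG box lay 58 to 49 bases before the start and shared its first base with a GC box on the other strand at 63 to 58. In Zfp36l1 the AP-1 match lay 129 to 123 bases before the start. A CArG box was found in 1.1% of the 9224 promoters of listed genes and in 1.2% of the 260 of members, and an AP-1 match in 4.4% and 3.5%. The GC box was held by 58.7% of listed promoters and 40.8% of member promoters, the CRE core by 27.3% and 28.1%, and the NF-kB site by 6.7% and 5.4%.

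Values are FPKM, fragments scaled to gene length and library size, so levels can be compared between genes, but the read depth is unknown. Library BLM3 stood apart. The first principal component of all tested genes held 56.6% of the variance and placed BLM3 at 55.3 and the other 5 libraries between -21.9 and 4.68. All 14 alveolar macrophage markers were listed, at a summed FPKM of 5664 to 8053 in the knockout and 4038 to 7206 in the wild-type libraries. Of these, 11 were higher and 3 lower in the knockout, and 1 fell at an adjusted p under 0.05 (0.851% of all tested genes fell). The 9 listed of 10 neutrophil markers summed to 84.1 to 132 FPKM in the knockout libraries, 142 in BLM1, 151 in BLM2 and 2829 in BLM3. The 12 markers of monocytes and recruited macrophages filled 13 rows, all summed. Their sums were 679 to 990.1 FPKM in knockout and 1645 to 1805 in wild-type libraries, with 3 rows higher and 10 lower in the knockout. Of the 13 rows, 4 fell and 0 rose at an adjusted p under 0.05, against 0.851% and 0.252% of all tested genes. Those of lung epithelium summed to 308 to 397 FPKM in knockout and 78.2 to 218 FPKM in wild-type libraries. The epithelial markers were split, with 6 higher and 3 lower in the knockout (log2 differences of -1.49 to 1.76), so the sum does not stand for all of them. Tnfaip3 itself, the targeted gene, had 8.44, 12.9 and 6.80 FPKM in the knockout libraries, against 4.47, 2.18 and 21.6 in the wild-type libraries (limma adjusted p = 0.734), so its level does not check the genotype labels. In bulk RNA, fewer cells of a type and less RNA per cell cannot be told apart.

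Zfp genes were mostly expressed at low level. Their median was 2.90 FPKM, against 6.59 FPKM over all listed genes, and 76.6% of them lay below 5 FPKM, against 41.3% of all. Of the 312, 24 reached 10 FPKM and 4 reached 30 FPKM. The highest was Zfp36l2 with a mean of 165 FPKM over the 6 libraries, followed by Zfp36, Zfp385a, Zfp703, Zfp36l1, Zfp706, Zfp445 and Zfp991. Summed over the 312 genes, FPKM was 1552, 1631 and 1481 in the knockout libraries, against 1422, 1306 and 1518 in the wild-type libraries. Each sum was between 0.443% and 0.588% of the library's total. The table lists a gene only if its mean reached 0.5 FPKM in the higher group, and GENCODE M21 names 82 further protein-coding genes of this kind that were not analysed here.

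Of the 312 members, 264 had a mean of at least 1 FPKM over the 6 libraries and were tested, and 48 were below it. In a limma fit of log2(FPKM + 1) across all 10696 tested genes, 0 members rose and 0 fell in the knockout at an adjusted p under 0.05, against 0.252% of all genes that rose and 0.851% that fell. The smallest adjusted p of a member was 0.0592, for Zfp608. At an unadjusted p under 0.05, 28 members were higher and 11 lower in the knockout, or 10.6% and 4.17% of the tested members, against 11.0% and 9.30% of all tested genes. In either direction that was 39 members, or 14.8%, against 20.3% of all. All 3 knockout values lay above all 3 wild-type values in 47 members (17.8%, against 15.9% of all tested genes), and below them in 19 (7.20%, against 13.1%). Together these were 25.0% of members, against 29.0% of all genes. The gaps between members and all genes were not tested. The median log2 difference was 0.04 for members and 0.02 for all tested genes, and 58.7% of members and 52.9% of all genes had a positive one. Without BLM3, 33 members were higher and 10 lower at an unadjusted p under 0.05 (16.3% in all, against 23.3% of all genes), and the median was 0.08 for members and 0.03 for all genes.

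Few members had a sizeable difference. An absolute log2 difference of at least 0.5 was reached by 22 members (8.33%, against 14.9% of all tested genes) and one of at least 1 by 2 members, Zfp703 and Zfp36l1 (0.758%, against 3.71%). Within genes at a mean of 1 to 2 FPKM, 4.69% of members and 18.7% of all genes passed 0.5, within 2 to 5 FPKM it was 9.45% of members and 14.5% of all genes, and within 5 to 10 FPKM 6.12% and 14.4%. Among the 24 members at 10 FPKM or more, 4 (16.7%) passed 0.5, close to the 14.5% of all such genes. Of these, Zfp36 (-0.56) and Zfp36l1 (-1.01) had differences of -0.11 and -0.47 without BLM3. The log2(FPKM + 1) scale understates the change of genes at low FPKM. When libraries were rescaled to TPM the median of all tested genes moved to 0.10 and that of members to 0.12, and the calls over all genes were 41 rises and 64 falls in place of 27 and 91. No member was called on that scale either, with 47 members higher and 8 lower at an unadjusted p under 0.05 (20.8% in all, against 23.0% of all genes), and 69.7% of members and 63.1% of all genes had a positive difference there.

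**Figure D1:**
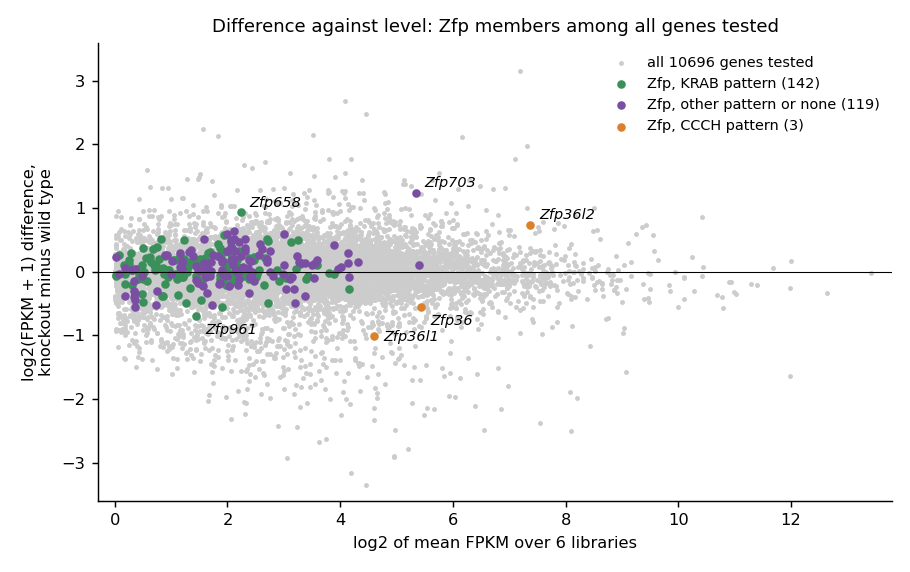
Log2(FPKM + 1) difference, knockout minus wild type (vertical axis), against the log2 of the mean FPKM over the 6 libraries (horizontal axis), for all 10696 tested genes in grey and the 264 tested Zfp members in colour by sequence pattern. The members lie between -1.01 and 1.24, and the 4 with a mean of 30 FPKM or more are Zfp36l2, Zfp36, Zfp385a and Zfp703.

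Of the 3 CCCH genes, which act on messenger RNA, 0 were called, and their differences were not of the same sign. Zfp36l2, the most abundant member (chr17:84183931-84187947, GRCm38), had an FPKM of 231, 208 and 181 in the knockout libraries, against 135, 134 and 102 in the wild-type libraries. All knockout values lay above all wild-type values. The means were 207 ± 25.0 FPKM in knockout and 124 ± 18.8 FPKM in wild-type libraries (SD, n = 3 each), which differed by 0.74 ± 0.16 on the log2 scale (SE) with a 95% interval of 0.37 to 1.12, which missed the threshold (limma adjusted p = 0.0857). Without BLM3 it was 0.61 (adjusted p = 0.0568).

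Zfp36, tristetraprolin itself (chr7:28376784-28380253), had 39.4, 32.2 and 27.0 FPKM in the knockout libraries, against 36.4, 34.2 and 91.6 in the wild-type libraries. BLM3 was the one high library and the other 5 overlapped. The log2 difference was -0.56 ± 0.38 (SE, limma adjusted p = 0.435) with all libraries and -0.11 without BLM3. Zfp36l1 (chr12:80107754-80113013) had 12.6, 16.6 and 12.5 FPKM in the knockout libraries, against 27.8, 13.4 and 62.6 in the wild-type libraries. BLM3 was again the highest, and BLM2 lay within the knockout range. Its log2 difference was -1.01 ± 0.50 (SE, limma adjusted p = 0.304) and -0.47 without BLM3. The neutrophil markers, at 2829 FPKM in BLM3 against at most 151 in any other library, were highest in the same library, and their part in these values was not tested.

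Because FPKM is scaled to gene length, the make-up of the CCCH pool can be read within each library. Zfp36l2 held 81.7%, 81.0% and 82.1% of the summed FPKM of the 3 genes in A20-1, A20-3 and A20-4, against 67.8%, 73.8% and 39.8% in BLM1, BLM2 and BLM3. The knockout shares lay within a narrow band above every wild-type share. Zfp36l1 held 4.43% to 6.45% in the knockout libraries, against 13.9%, 7.41% and 24.4% in the wild-type libraries, and Zfp36 held 12.2% to 13.9% in the knockout, against 18.3%, 18.8% and 35.7% in the wild-type libraries. Sums of the 3 genes were 283, 257 and 221 FPKM in the knockout and 199, 181 and 256 FPKM in the wild-type libraries. The groups overlapped for the sum and not for the shares, which add to 100% in each library and so are not separate observations. In BLM1 and BLM2 the FPKM of Zfp36 lay within the knockout range while that of Zfp36l2 lay below it.

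**Figure D2:**
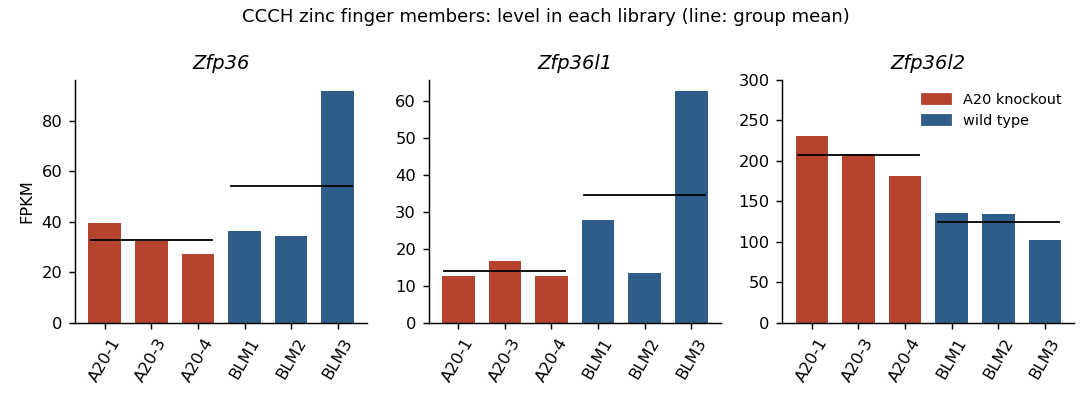
FPKM (vertical axis) of Zfp36, Zfp36l1 and Zfp36l2 in each library, one bar per library, with a line at the group mean. Zfp36l2 is 181 to 231 FPKM in the knockout and 102 to 135 in the wild-type libraries, while Zfp36 and Zfp36l1 peak in BLM3 at 91.6 and 62.6 FPKM.

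A list of genes of messenger RNA decay and a list of known targets of tristetraprolin were counted alongside. The first held 25 tested genes, of the CCR4-NOT deadenylase and its adaptors and of tristetraprolin's regulators. It also held Pan2, Pan3, Elavl1, Zc3h12a, Rc3h1 and Rc3h2, which are neither. Of the 25, 0 were called (0.252% of all genes rose and 0.851% fell). There were 16 positive and 9 negative differences, and the median was 0.15 (0.20 without BLM3). The smallest p was that of Rc3h1, which encodes the RNA-binding ubiquitin ligase roquin-1, with a mean of 8.84 ± 0.317 FPKM in knockout and 5.78 ± 0.603 FPKM in wild-type libraries (SD, n = 3 each; log2 difference 0.54, limma adjusted p = 0.0747). It rose without BLM3 (0.60, limma adjusted p = 0.0439). Tob2, an adaptor of the deadenylase, followed with 0.50 (limma adjusted p = 0.103), and the deadenylase subunit gene Cnot3 with 0.33 (limma adjusted p = 0.133). Of 17 transcripts known to be bound by tristetraprolin, all listed, 13 were tested, 0 were called, and 12 of the 13 had a negative difference, with a median of -1.25. All 13 had their highest value in BLM3, and without that library 9 of 13 differences were negative, the median was -0.11 and 2 genes fell, Plk3 (-0.67, limma adjusted p = 0.0284) and Il1a (-0.82, limma adjusted p = 0.0482), in a fit that called 3.84% of all genes. With all libraries the smallest p values were those of the kinase gene Plk3 (-0.90, limma adjusted p = 0.0954), the chemokine gene Ccl2 (-2.68, 0.155) and the cytokine gene Il1a (-1.36, 0.173). Plk3 had 16.4, 18.3 and 16.6 FPKM in knockout libraries, against 29.1, 26.7 and 45.6 in wild-type libraries. Ccl2 had 1.35, 1.93 and 0.670 FPKM in the knockout libraries, against 3.99, 9.63 and 56.3 in the wild-type libraries. The groups were separated for both, and Zfp36 is one of the 13.

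Outside the CCCH group, Zfp703 had the largest positive difference of any member. It encodes a transcriptional corepressor whose human counterpart is amplified in breast cancer. Its FPKM was 48.0, 65.1 and 55.5 in the knockout libraries, against 25.1, 35.7 and 13.5 in the wild-type libraries, with BLM3 the lowest. The means were 56.2 ± 8.58 FPKM in knockout and 24.8 ± 11.1 FPKM in wild-type libraries (SD, n = 3 each), which differed by 1.24 ± 0.33 on the log2 scale (SE, limma adjusted p = 0.121). Without BLM3 it was 0.88 (limma adjusted p = 0.0582).

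Zfp608, whose product represses the Rag recombinase genes in mouse thymocytes, had the smallest p. It had 10.1, 9.01 and 10.3 FPKM in the knockout libraries, against 5.85, 5.99 and 6.63 in the wild-type libraries. Replicates lay close together on either side of a clear gap. The log2 difference was 0.59 ± 0.10 (SE) with a 95% interval of 0.35 to 0.84 (limma adjusted p = 0.0592). It was called without BLM3 (0.64, limma adjusted p = 0.0363), in a fit that called 3.84% of all genes. Its relative Zfp609, whose product works with the cohesin loader Nipbl in mouse neural progenitors, had 6.46, 5.03 and 6.44 FPKM in the knockout libraries, against 4.31, 4.35 and 3.09 in the wild-type libraries. Its groups were also separated (log2 difference 0.51, limma adjusted p = 0.150, and 0.38 without BLM3).

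The other large positive differences with separated groups were in C2H2 genes at low level. Zfp658, a KRAB gene whose human counterpart is known as a zinc-responsive repressor, had 4.37, 7.67 and 7.61 FPKM in the knockout libraries, against 2.90, 3.20 and 2.47 in the wild-type libraries. A20-1 was the lowest of its knockout values and still lay above every wild-type one. Its log2 difference was 0.94 ± 0.21 (SE, limma adjusted p = 0.0925). Zfp770 had 4.42, 6.52 and 5.57 FPKM in the knockout libraries, against 3.20, 3.79 and 2.53 in the wild-type libraries (0.64, limma adjusted p = 0.121). Zfp623 had 4.96, 5.77 and 5.06 FPKM in the knockout libraries, against 3.58, 3.56 and 2.97 in the wild-type libraries (0.52, limma adjusted p = 0.0889). Every knockout value of these genes stood above the wild-type range, and none of these genes shared as much as 1% of its 50-base words with another gene's transcripts.

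The largest negative difference with separated groups was that of Zfp961, a KRAB gene. It had 1.05, 2.80 and 1.86 FPKM in the knockout libraries, against 3.61, 3.52 and 3.55 in the wild-type libraries. Its wild-type values were nearly equal and its knockout values spread widely (log2 difference -0.70 ± 0.22, SE, limma adjusted p = 0.162). Its exons overlap those of Cyp4f18 on the opposite strand, which had a mean of 44.1 FPKM and a log2 difference of -0.12, and whether the authors counted by strand is not given. Zfp90, another KRAB gene, had 2.03, 1.45 and 2.01 FPKM in the knockout libraries, against 3.16, 2.83 and 2.85 in the wild-type libraries (-0.49 ± 0.13, SE, limma adjusted p = 0.118). Zfp513, whose human counterpart is known from retinal disease, had 8.33, 5.60 and 8.59 FPKM in the knockout libraries, against 10.5, 10.6 and 11.1 in the wild-type libraries (-0.49, limma adjusted p = 0.174), and overlaps Snx17 on the opposite strand. Zfp932 had 2.52, 3.04 and 2.81 FPKM in the knockout libraries, against 4.83, 3.46 and 5.64 in the wild-type libraries (-0.56, limma adjusted p = 0.145), but 37.0% of its 50-base words occur in other genes, so its level is uncertain.

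Zfp366, known as DC-SCRIPT, a regulator of dendritic cells, had 1.33, 1.15 and 1.02 FPKM in the knockout libraries, against 3.01, 2.09 and 1.45 in the wild-type libraries. The groups did not overlap, and the log2 difference was -0.53 ± 0.19 (SE, limma adjusted p = 0.200). The 7 dendritic cell markers, all listed, summed to 44.4 to 52.3 FPKM in the knockout libraries and 60.2 to 90.9 FPKM in the wild-type libraries, with 6 of 7 lower in the knockout, and their part in the Zfp366 values was not tested. Without BLM3, in a fit that called 3.84% of all genes, 3 of the 7 fell and 0 rose. These were Flt3, Xcr1 and Clec9a, with log2 differences of -0.81, -1.36 and -0.70 (limma adjusted p = 0.0276, 0.0236 and 0.0453). Zfp296, known from stem cell reprogramming in the mouse, had 0.918, 0.706 and 0.877 FPKM in the knockout libraries, against 1.49, 1.30 and 2.36 in the wild-type libraries (-0.55, limma adjusted p = 0.155). It overlaps Gemin7 on the opposite strand. Without BLM3 the log2 difference was -0.70 for Zfp366 and -0.39 for Zfp296.

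**Figure D3:**
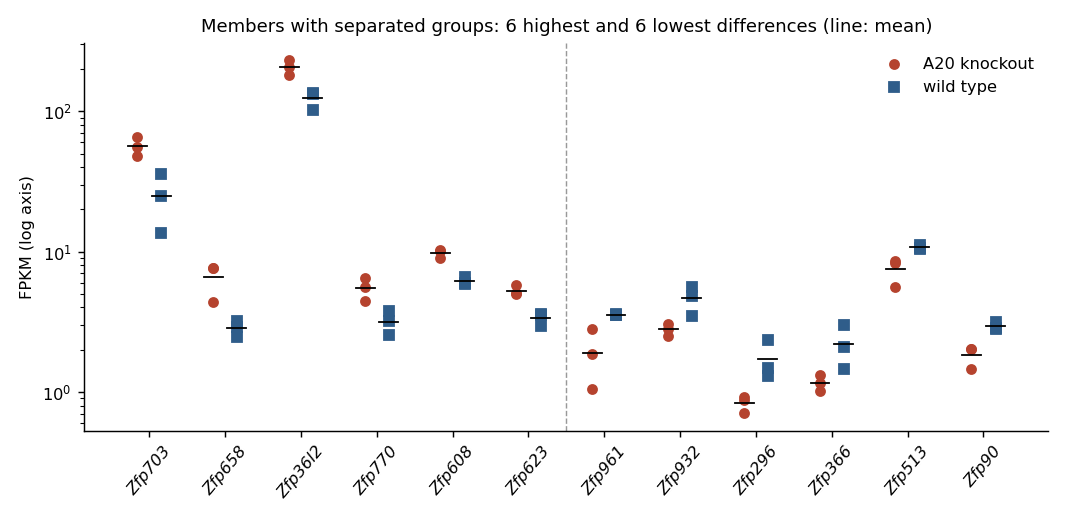
FPKM on a log axis for the 6 highest and 6 lowest log2 differences among members whose knockout and wild-type values do not overlap, one point per library with a line at the group mean. Points can coincide. The gap between the groups is small beside the range of levels, from 0.706 FPKM (Zfp296) to 231 FPKM (Zfp36l2).

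Members with a described role were taken from a list of 35, of which 32 had a row, and Zfp57, Zfp42 and Zfp521 had none. All 32 were tested and 0 were called (0.252% of all genes rose, 0.851% fell). Their median log2 difference was 0.11, with 21 positive and 11 negative, and 6 were higher and 0 lower with separated groups (15.9% and 13.1% of all tested genes). These 6 were Zfp608, Zfp609, Zfp703, Zfp217, Zfp809 and Zfp746. The list of 35 was chosen with earlier results of these data known, so its counts only describe it.

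Among silencers of repeats and imprints, Zfp809, which recognises the primer binding site of murine leukaemia viruses and recruits Trim28, had 10.5, 10.9 and 9.62 FPKM in the knockout libraries, against 8.58, 7.31 and 5.86 in the wild-type libraries. The groups were separated (log2 difference 0.47 ± 0.14, SE, limma adjusted p = 0.151, and 0.34 without BLM3). Zfp445, which helps to maintain imprints, had means of 17.3 ± 0.659 FPKM in knockout and 18.4 ± 2.41 FPKM in wild-type libraries (SD, n = 3 each), and differed by -0.08 (log2) with a 95% interval of -0.37 to 0.21. Zfp568, which represses a placental Igf2 transcript in the mouse embryo, stayed near 1 FPKM, at 1.69, 0.810 and 1.90 in the knockout libraries and 1.11, 0.611 and 1.20 in the wild-type libraries.

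Of the ubiquitin ligases and ribosome factors, Zfp598, which marks collided ribosomes, had 15.9, 21.6 and 21.2 FPKM in the knockout libraries, against 14.3, 16.1 and 16.3 in the wild-type libraries. A20-1 lay among the wild-type values (log2 difference 0.30, limma adjusted p = 0.291). Zfp622, which takes part in maturing the large ribosomal subunit, had 6.53, 7.60 and 8.64 FPKM in the knockout libraries, against 5.47, 4.87 and 7.24 in the wild-type libraries, with BLM3 inside the knockout range (0.33, and 0.47 without BLM3). Zfp91, a ubiquitin ligase for the NF-kB inducing kinase, had means of 16.6 ± 1.36 FPKM in knockout and 15.7 ± 0.486 FPKM in wild-type libraries (SD, n = 3 each), a difference of 0.08 with a 95% interval of -0.17 to 0.32. Its exons overlap those of Cntf on the same strand.

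Among transcriptional regulators, Zfp217, a corepressor known as an oncogene in human tumours, had 19.7, 17.5 and 14.6 FPKM in the knockout libraries, against 14.4, 11.7 and 11.7 in the wild-type libraries. The groups only just failed to touch, and the log2 difference was 0.42 ± 0.14 (SE, limma adjusted p = 0.180). Zfp746, a repressor of the mitochondrial regulator Ppargc1a known as PARIS, had 4.02, 5.13 and 4.39 FPKM in the knockout libraries, against 3.90, 3.02 and 3.35 in the wild-type libraries (0.32, limma adjusted p = 0.236). Zfp281, a stem cell regulator, had 7.39, 7.42 and 6.50 FPKM in the knockout libraries, against 7.17, 6.02 and 15.0 in the wild-type libraries. BLM3 alone was high, and the difference of -0.27 became 0.10 without it. Zfp263 had 9.63, 5.56 and 5.87 FPKM in the knockout libraries, against 4.04, 3.71 and 7.07 in the wild-type libraries, and its difference of 0.44 was 0.68 without BLM3. Zfp385a, a partner of p53 and one of the most abundant members, had 49.9, 40.6 and 39.5 FPKM in the knockout libraries, against 47.7, 48.2 and 28.2 in the wild-type libraries (0.10, and -0.15 without BLM3), so its sign rested on BLM3.

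The 3 members of the Z3 complex, which assembles with the histone reader Zmynd8, had differences of either sign. Zfp592 and Zfp687 had log2 differences of 0.14 and -0.02 with overlapping groups, and turned negative with the GC and length trend removed and positive with TPM, in that order. Zfp532 had 0.890, 0.655 and 1.23 FPKM in the knockout libraries, against 2.08, 1.66 and 1.17 in the wild-type libraries (-0.45, limma adjusted p = 0.236, and -0.58 without BLM3). A20-4 lay above BLM3 for this gene and the other libraries were separated. Of the regulators of fat and bone cell fate, Zfp516 had a difference of -0.33 and Zfp467 of 0.04, both with overlapping groups. Zfp683, known as Hobit and a marker of tissue-resident lymphocytes, had 1.60, 0.615 and 0.813 FPKM in the knockout libraries, against 0.896, 1.38 and 2.40 in the wild-type libraries (-0.34, and -0.11 without BLM3). Summed markers of T and NK cells were 277 to 315 FPKM in the knockout and 207 to 416 FPKM in the wild-type libraries, highest in BLM3 like Zfp683. The 11 listed markers were split, with 6 higher and 5 lower in the knockout (log2 differences of -0.67 to 0.70). The sum therefore does not stand for all of them, and their part in the Zfp683 values was not tested.

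The other members with a described role had differences near 0 and overlapping groups. The transcription factor Zfp143 had a log2 difference of 0.15 and the GC-box binding factor Zfp148 one of 0.20. Zfp384 had -0.10 and Zfp335, a regulator of T cell maturation, had -0.03. Zfp410, the activator of Chd4, had -0.03, Zfp292 had -0.06 and Zfp277 had 0.17. Among RNA-linked members, the splicing factor Zfp326 had -0.05, Zfp106 had 0.13 and Zfp318, needed for IgD in mouse B cells, had 0.17. The spindle factor Zfp207 had 0.04 and the neurotrophin receptor partner Zfp110 had 0.10. All 12 had a limma adjusted p of 0.444 to 0.926, which does not show that they were alike in the groups. The abundant small protein gene Zfp706 averaged 20.8 ± 0.986 FPKM in knockout and 18.9 ± 3.76 FPKM in wild-type libraries (SD, n = 3 each), with BLM3 the lowest at 14.8 FPKM, and its log2 difference was 0.15 and -0.01 without BLM3. The 218 tested members not named by these rules had differences of -0.52 to 0.59 and a median of 0.04. Of these, 18 were higher and 4 lower at an unadjusted p under 0.05, against 11.0% and 9.30% of all genes. The rules took out the largest separated differences, so this range and these counts are partly set by the choice.

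Sequence patterns were read from the longest complete coding sequence of each gene in GENCODE M21, as pattern matches and not as domain annotation. KRAB matches were found in 177 members, 85 had 5 or more C2H2 fingers without KRAB or SCAN, 35 had 1 to 4, 7 had SCAN without KRAB, 3 had CCCH, and 5 matched no pattern, Zfp703 among them. The KRAB pattern also hit 15 of 11121 listed proteins with no C2H2 match. KRAB domains that it missed were not counted, so members without a match may still carry one. KRAB members carried a median of 12 fingers and the others 7, and the most was 36, in Zfp142, named here after its value was seen. Members with a KRAB match were also the least expressed of these classes, with a median of 2.27 FPKM. It was 3.61 for genes with 5 or more fingers and 5.23 for those with 1 to 4. Of the 64 members that shared at least 10% of their 50-base words with another gene, 58 had a KRAB match. The part of shared sequence in their lower level was not tested. Across the 301 members with a C2H2 match, the Spearman correlation of finger count with mean FPKM was -0.26, a description across genes that share libraries and sequence.

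By class the differences were small. Of 142 tested KRAB genes 0 were called, 12 were higher and 5 lower at an unadjusted p under 0.05, and the median log2 difference was 0.03. The 78 tested genes with 5 or more fingers had 9 higher, 5 lower and a median of 0.04, and the 30 with 1 to 4 fingers had 4 higher, 1 lower and a median of 0.14. Against these stand 11.0% of all genes higher and 9.30% lower at that p. Separated groups were found in 23 KRAB genes with the knockout higher and 13 with it lower, against 24 and 6 of the 122 tested members without a KRAB match. Of all tested genes, 15.9% were separated with the knockout higher and 13.1% with it lower. None of the differences between classes was tested.

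**Figure D4:**
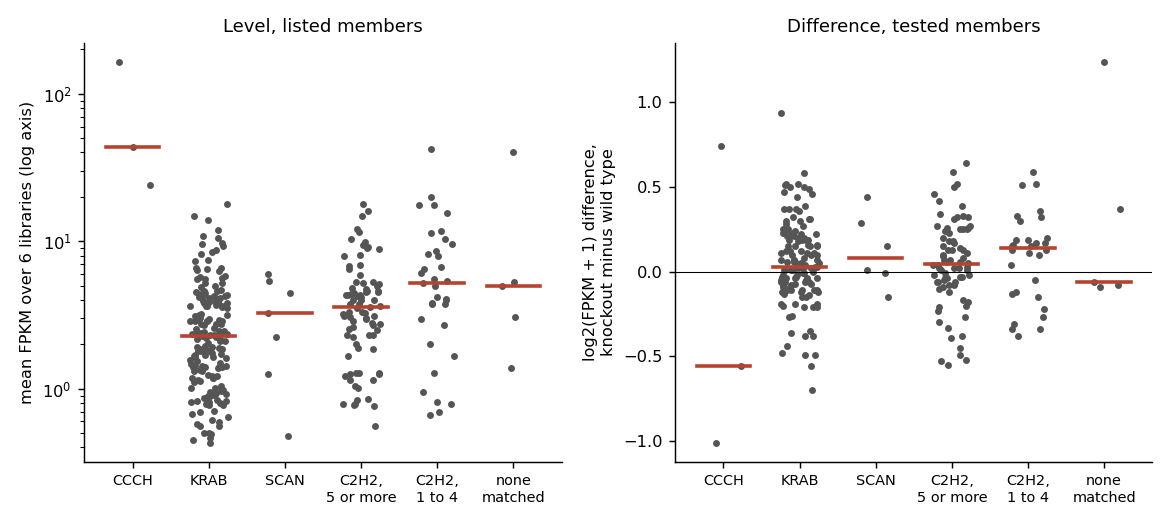
Mean FPKM over the 6 libraries on a log axis for the listed members (left) and the log2(FPKM + 1) difference, knockout minus wild type, for the tested members (right), one point per gene by sequence pattern, with a line at the class median. The median level is 2.27 FPKM in KRAB genes and 5.23 FPKM in genes with 1 to 4 C2H2 fingers, and the medians of the difference are 0.03 and 0.14.

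Corepressor and heterochromatin genes, built around those that KRAB proteins call on, were counted as a separate list. It is wider than the KRAB pathway and holds Zbtb33, Ehmt2 and Suv39h1, which also act apart from it. Its counts therefore do not describe that pathway alone. Of 28 genes, 26 were listed and tested, and 0 were called (0.252% of all genes rose and 0.851% fell). Of these 21 had a positive and 5 a negative difference, with a median of 0.17 against 0.02 over all tested genes. Without BLM3 the median was 0.22, against 0.03, again with 0 calls. Trim28, the docking protein itself, had 21.4, 24.6 and 24.6 FPKM in the knockout libraries, against 18.1, 18.7 and 19.8 in the wild-type libraries. The groups were separated (log2 difference 0.30 ± 0.10, SE, limma adjusted p = 0.181). Ehmt2, a histone H3 lysine methyltransferase, had 28.7, 29.4 and 29.9 FPKM in the knockout libraries, against 24.7, 25.3 and 19.8 in the wild-type libraries (0.33, limma adjusted p = 0.195), and Cbx5, heterochromatin protein 1 alpha, had 8.11, 7.91 and 6.76 FPKM in the knockout libraries, against 5.70, 6.59 and 5.23 in the wild-type libraries (0.33, limma adjusted p = 0.203).

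KRAB zinc finger genes are known to lie in tandem arrays. Runs of at least 6 members with gaps of at most 500 kb numbered 11 and held 119 members, 89 of the 177 KRAB genes and 30 of the 135 others. Chromosome 7 alone carried 77 members, chromosome 17 had 42 and chromosome 13 had 33. The array at chr13:67038596-67827002 (GRCm38) held 21 members, all KRAB, of which 17 were tested, with differences of -0.19 to 0.58 around a median of 0.15. The array at chr17:21008941-23564226 held 21, of which 18 were tested with a median of 0.02. In the array at chr6:47835661-48623227, with Zfp398, Zfp282, Zfp212, Zfp956, Zfp777, Zfp746, Zfp467 and Zfp775, all 8 differences were positive, from 0.02 to 0.36, and 4 had separated groups (52.9% of all tested genes had a positive difference and 15.9% were separated with the knockout higher). This array was picked out after its values were seen, its Zfp467 turned negative when A20-1, A20-3 or BLM3 was left out, under library weights and after removal of the GC and length trend, and 0 of the 8 were called.

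Shared sequence also limits what the table can resolve. At least 10% of the 50-base words of the transcripts were shared with another gene in 64 members, 58 of them KRAB, and at least 50% in 19 members. Zfp991, the eighth most abundant member, shared 82.2%. It had 17.8, 17.6 and 12.9 FPKM in the knockout libraries, against 20.8, 19.6 and 18.0 in the wild-type libraries (log2 difference -0.27, limma adjusted p = 0.345). How the authors assigned reads that match several genes is not given, so values of such genes are uncertain. Exons of another gene overlapped on the opposite strand in 74 members and on the same strand in 33. Besides those named above, the opposite-strand overlaps included Zfp36, Zfp36l1, Zfp36l2, Zfp608, Zfp703 and Zfp90.

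The library that held the extreme value of each gene was also counted. Of the 264 tested, 33.0% had their highest value in A20-3, against 17.6% of all tested genes, and 29.2% had it in BLM3, against 26.5%. BLM2 held the highest value of 2.27% of members, against 11.9% of all genes, and the lowest of 34.8%, against 20.7%. The lowest value lay in BLM3 for 15.5% of members, against 27.6% of all genes. The members' median deviation from the gene mean was 0.09 in A20-3 and -0.12 in BLM2 on the log2 scale, against 0.03 and -0.03 over all genes. Without BLM2 the members' median difference was 0.00. Members had a median GC content of 43.75% and a median transcript length of 3424.5 bases, against 50.1% and 3002 bases over all listed genes, and with the trend of each library on both removed the median difference remained 0.04. The part of any technical difference between libraries was not tested.

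**Figure D5:**
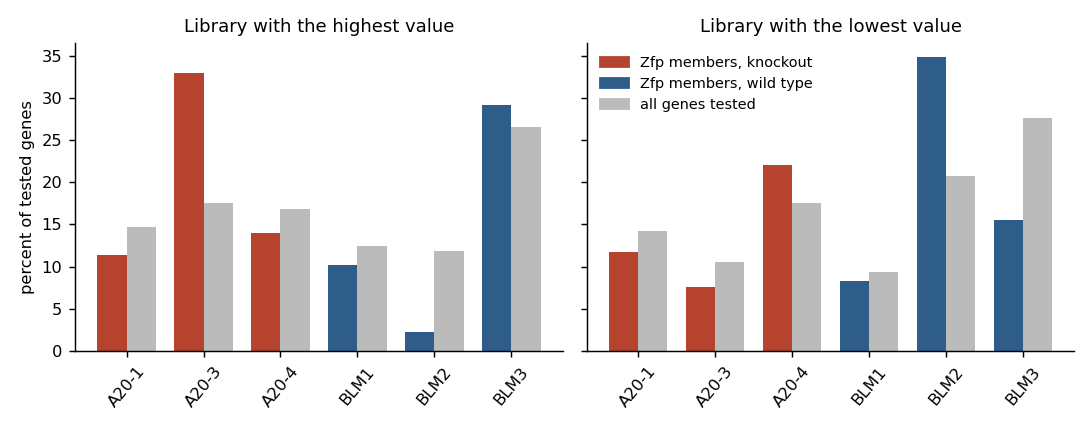
Percent of tested genes (vertical axis) whose highest value (left) or lowest value (right) lies in each library, for the 264 Zfp members in colour and all 10696 tested genes in grey. Members peak in A20-3 (33.0%) and BLM3 (29.2%) and have their lowest value most often in BLM2 (34.8%).

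Other zinc finger families named by prefix were counted in the same way. The 38 tested Zbtb genes had 0 calls and a median difference of 0.18 (log2), and the 15 tested Zc3h genes had 0 calls and a median of -0.05. Of 10 tested Klf genes 1 rose, with a median of 0.33 (0.252% of all genes rose and 0.851% fell). The 8 Zkscan and 6 Zscan genes tested both had medians of 0.14 and 0 calls. Without BLM3 the Zfp median was 0.08 and those of the other families 0.14 to 0.34, so that of Zc3h turned positive. That fit called 3.84% of all genes. In it Zbtb32, Klf11 and Klf13 rose, as did Zfp608 among Zfp genes, and the other families had 0 calls. No test of the differences between families was made.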

How the data were processed

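The data are RNA-seq profiles of mouse alveolar macrophages, 3 libraries per group. Per the labels' protocols, RNA came from flash frozen cells by Trizol and went into a KAPA stranded kit at 1 ug. Values are FPKM as deposited by the authors, per the file headers, on build GRCm38, per the submitters' processing notes. Aligner, counter, annotation and use of strand were not given in the sources used here, and the depth is unknown.

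Columns were assigned to groups by name, BLM1 to BLM3 as wild type because the labels hold only these 2 groups. Genes with a mean of at least 1 FPKM over the 6 libraries were compared on log2(FPKM + 1), a pseudocount of 1, by limma 3.58.1 (lmFit, eBayes with trend) in R 4.3.3, two-sided, with Benjamini-Hochberg adjustment over 10696 genes and a threshold of 0.05. Differences are knockout minus wild type, and "rose" or "fell" is used past that threshold. The script was tested on simulated data. An exact permutation test of the Tnfaip3 levels, two-sided, gave p = 1 (0.1 is the lowest it can reach).

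Named genes are the 3 CCCH members, the 8 highest, the 6 largest separated differences in each direction, members with a described role, and the 3 smallest p of each pathway list. Members and lists were chosen with earlier results of these data known. Cell type marker lists served only to describe the libraries: B cell markers summed to 11.6 to 20.1 FPKM in knockout and 10.6 to 84.8 FPKM in wild-type libraries, and fibroblast and endothelial markers, 4 of 9 listed, to 10.7 to 15.1 FPKM in knockout and 10.1 to 12.4 FPKM in wild-type libraries. Sequence patterns came from GENCODE M21 (Python 3.11.15).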

Additional observations from a re-analysis of the deposited data

How the results depend on the processing

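Other pseudocounts (0.1 and 5), no minimum level, a minimum of 5 FPKM, TPM, quantile normalization and removal of the GC and length trend each called 0 Zfp members. With a minimum of 5 FPKM, 17 genes rose and 58 fell among all genes, with fewer tested. With TPM, 41 genes rose, and the members' median was 0.12. With limma array weights, which gave BLM1 a weight of 6.09 and BLM3 one of 0.229, 942 genes rose and 992 fell (18.1% of all), among them 20 and 11 members; the cause was not tested. Of the named members, 15 were called there and not with equal weights, including Zfp36l2, Zfp608, Zfp623, Zfp658 and Zfp703 above and Zfp90, Zfp366 and Zfp961 below.

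Leaving out 1 library gave 0 to 144 rises and 0 to 267 falls over all genes, 0 to 1 rises and 0 falls of members, and a member median of 0.00 to 0.08. The member was Zfp608, without BLM3. Of 349 values of named members under the other settings, 19 changed sign, all in members that were not called. With TPM, Zfp292 and Zfp326 were 0.02, Zfp335 and Zfp687 0.05 and Zfp410 0.04. With quantile normalization Zfp410 was 0.03. With array weights Zfp110, Zfp292 and Zfp335 were 0.00, Zfp385a -0.14, Zfp410 0.08, Zfp467 -0.08 and Zfp687 0.02. With the GC and length trend removed, Zfp106 and Zfp318 were -0.07, Zfp326 0.00, Zfp467 and Zfp592 -0.04 and Zfp91 -0.05. With 1 library left out, 20 of 276 values changed sign. The ranges were 0.00 to 0.28 for Zfp106, -0.15 to 0.23 for Zfp385a, -0.09 to 0.08 for Zfp410, -0.17 to 0.23 for Zfp467, -0.02 to 0.11 for Zfp207, -0.08 to 0.02 for Zfp335, -0.14 to 0.10 for Zfp687, -0.30 to 0.22 for Zfp292, -0.15 to 0.03 for Zfp326, -0.17 to 0.01 for Zfp384, -0.50 to 0.10 for Zfp281 and -0.01 to 0.27 for Zfp706.

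No paired analysis was possible because the table's columns cannot be tied to the replicate numbers of the sample titles. The read depth is unknown, so no limit of detection is given.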
